A study of Mus musculus with 48 samples.

Results

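The change of liver gene expression from the daytime fast to the first hours with food was followed in total RNA of mice that lack Nono (Nono-/-). Libraries of zeitgeber times ZT14, ZT16 and ZT18 (hours after lights on), taken in the dark with food present, form the fed window and were compared with libraries of ZT8, ZT10 and ZT12, the last hours without food, which form the fast window. These are 6 of the 48 libraries of the study, chosen by genotype, RNA fraction and time alone. The mice were C57BL/6, 14 weeks old, kept with lights on for 12 h of each day, and had been given food only in the dark for a week before their livers were taken. Wild-type mice of the same strain, age and feeding were sampled at the same times, and each liver sample of either genotype was a pool of 2 mice that gave a library of total RNA and one of nuclear RNA. There is 1 library per genotype, fraction and time. The 3 libraries of a window therefore stand in for replicates although they were taken at successive times, and their spread holds both the difference between pools and the change with time. Food, darkness and time of day changed together, so their shares in a difference cannot be told apart. In bulk RNA, fewer cells of a type and less RNA per cell cannot be told apart either.

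Eating after a fast raises insulin and lowers glucagon, and the liver turns from releasing glucose and burning fat to storing glycogen and making fatty acids. Transcription factors of the SREBP and ChREBP families drive the genes of fat and cholesterol synthesis in this state, while FOXO factors and PPAR alpha drive genes of the fast. Meals also set the phase of liver clock genes and come with a daily rise of body temperature, to which heat shock factor 1 and the cold-inducible RNA-binding protein Cirbp respond. NONO, which binds RNA and DNA in the nucleus, has been linked to the clock and to the response of the liver to feeding.

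The labelled genotype was visible in Nono itself, whose exons read 0 to 0.055 FPKM (fragments scaled by exon length and by library depth) in these 6 libraries and 8.74 to 10.7 FPKM in the 6 wild-type libraries of the same windows. Depth, estimated from the steps between low FPKM values, was 15.6 to 22.5 M (mega) reads. The ZT10 library stood apart, with an intron share of 23.9% of its reads against 16 to 21.4% in the other 5. Its summed Kupffer cell marker level was 131 FPKM against 183 to 302 FPKM in the others. The 14 library measures (depth, read shares and summed markers of 9 cell types) had exact permutation p of 0.3 or more between the windows (2-sided). With 3 libraries a window the smallest possible p is 0.1, so this test could not show a difference. Hepatocyte markers summed to 44179 to 55494 FPKM and neutrophil markers to 3.86 to 7.80 FPKM. Of the 7 neutrophil markers Ly6g and Elane were at 0 in all 6 libraries. The part of the ZT10 library's composition in the results below was not tested beyond leaving that library out.

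With food, 151 of 11340 tested entries of the exon table rose and 129 fell in Nono-/- total RNA (limma with Benjamini-Hochberg adjusted p under 0.05), that is 1.33% and 1.14% of the entries tested. The fold change exceeded 2 for 55 of those that rose and 46 of those that fell. Without adjustment 1127 entries were higher and 790 lower at p under 0.05. The windows did not overlap in 149 of the 151 and 125 of the 129, and over all tested entries this held for 10.2% (fed above fast) and 9.2% (fed below fast). The median log2 difference of all tested entries was 0.01. Among the lists of genes shown in the plot of gene lists, the temperature genes held the highest median and the highest share of calls.

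**Figure D1:**
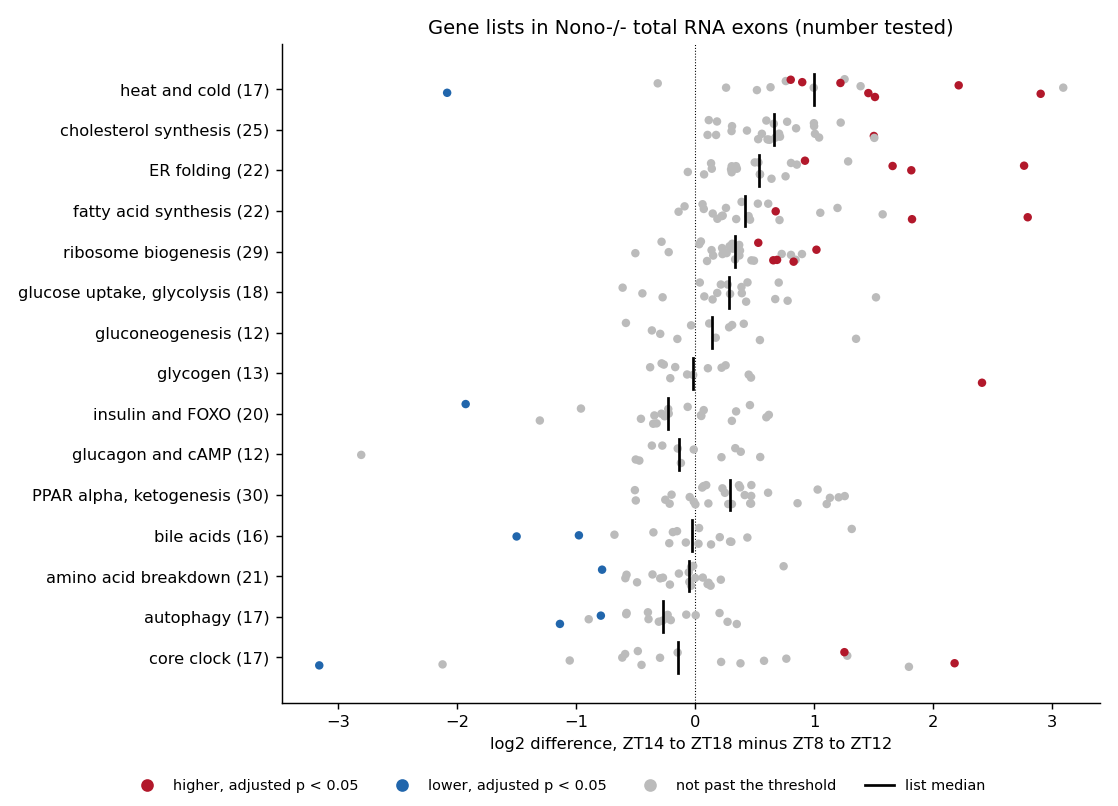
Log2 difference of exon FPKM between the fed and the fast window in Nono-/- total RNA, for the tested genes of 15 lists (number tested in brackets). Each point is a gene, red or blue where it passed the adjusted p of 0.05, and black bars are list medians. Temperature genes reach from -2.08 (Cirbp) to 3.09 (Hspa1b, not past the threshold), and all 25 cholesterol genes lie above 0.

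The genes of the heat shock response moved most as a group: of 17 tested members, 7 rose and 1, Cirbp, fell, and the median log2 difference was 1.0. Calls made up 47.1% of these members, where 1.33% of all entries rose and 1.14% fell. Hsph1, a cochaperone of the HSP110 family, read 4.0, 4.02 and 6.84 FPKM at ZT8, ZT10 and ZT12 and 35.6, 44.4 and 29.2 FPKM at ZT14, ZT16 and ZT18. It was 7.48-fold higher with food (log2 difference 2.90 ± 0.44 SE, adjusted p = 0.00284). All fed libraries lay above all fast ones, with ZT16 the highest. Hsp90aa1, the inducible cytosolic HSP90, rose from 10.8, 5.16 and 5.96 FPKM to 23.7, 43.0 and 32.1 FPKM, a 4.64-fold difference (2.21 ± 0.32, adjusted p = 0.00284). Again ZT16 was the highest and the windows did not overlap. The constitutive Hsp90ab1 rose 1.87-fold (adjusted p = 0.00822) from 146, 110 and 132 FPKM to 186, 257 and 272 FPKM. Chordc1, an HSP90-binding cochaperone, went from 12.5, 13.7 and 15.8 FPKM to 39.2, 50.2 and 30.7 FPKM, 2.85-fold higher (adjusted p = 0.0247). The other 3 that rose were Hspa4l (2.74-fold, adjusted p = 0.00721), the HSP40 gene Dnaja1 (2.33-fold, adjusted p = 0.0275) and the HSP90 activator Ahsa1 (1.74-fold, adjusted p = 0.0058). Without the ZT16 library the calls of Hsp90ab1, Hspa4l and Ahsa1 were lost (adjusted p = 0.0695, 0.0629 and 0.0544). Those of Chordc1 and Dnaja1 were lost without any one of ZT8, ZT10, ZT12, ZT14 and ZT16 (adjusted p of 0.0518 to 0.150 for both).

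Among the heat shock genes that did not pass, Hspa1b, the stress-inducible HSP70, read 0.337, 0.222 and 0.414 FPKM in the fast and 11, 4.80 and 0.676 FPKM with food (3.09 ± 0.92, adjusted p = 0.0758). Its level was highest at ZT14 and its fed libraries differed from each other by more than those of any other member named here. The constitutive HSP70 gene Hspa8 read 41.5, 25.7 and 43.4 against 81.9, 113 and 65.1 FPKM (1.26 ± 0.34, adjusted p = 0.0563). Bag3, a cochaperone of HSP70, had an adjusted p of 0.0503. The mitochondrial chaperonins Hspe1 and Hspd1 were 1.55-fold and 1.43-fold higher (adjusted p = 0.0613 and 0.0756). On the cold side, Cirbp, an RNA-binding protein made more at lower temperature, fell from 9.94, 6.32 and 7.67 FPKM to 2.13, 1.28 and 1.94 FPKM. The fall was 4.24-fold (-2.08 ± 0.31, adjusted p = 0.00284), and the highest fed library lay below the lowest fast one. The other cold-inducible gene of the list, Rbm3, read 1.47, 1.64 and 1.69 against 1.91, 2.30 and 1.55 FPKM (0.26 ± 0.23, adjusted p = 0.624). Rbm3 shares its locus with an antisense entry, and reads of the 2 strands may not be separated in these values.

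The promoters of Hsph1, Chordc1 and Hspe1 are shown because they carry the element that heat shock factor 1 binds. It was searched on both strands as GAANNTTC followed directly by NNGAA, with overlapping copies allowed. In windows from 250 bases before to 50 bases after the annotated start (RefSeq, build GRCm38.p6, which is mm10), it was present in 4 of 13 matched genes of the list, 30.8%, and in 179 of 27025 genes with a window, 0.662%. A match describes the letters and is not a test of binding. Capitals mark the element in these stretches, printed 5′ to 3′ along the gene, with positions counted from the start of the transcript. For Hsph1 (chr5:149636279-149636308, minus strand) the element spans positions 16 to 28, for Chordc1 (chr9:18292260-18292289, plus strand) 3 overlapping copies span -4 to 19, and for Hspe1 (chr1:55088053-55088082, plus strand), whose promoter is shared with Hspd1 on the other strand, 2 overlapping copies span -89 to -72.
Hsph1: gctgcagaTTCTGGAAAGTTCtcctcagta
Chordc1: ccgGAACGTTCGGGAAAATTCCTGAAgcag
Hspe1: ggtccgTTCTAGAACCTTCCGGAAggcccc
Of the 4 genes with the element, Hsph1 and Chordc1 rose. Hspe1 and Hspd1, which share the same copies, did not pass the threshold.

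Genes of protein folding in the endoplasmic reticulum, which serve the secreted proteins of the liver, were higher in 21 of 22 tested members, with 4 past the threshold, none lower and a median log2 difference of 0.54. The calls were 18.2% of the members, where 1.33% of all entries rose and the median over all entries was 0.01. Creld2, a secreted target of the unfolded protein response, rose from 7.66, 3.75 and 8.12 FPKM to 23.9, 49.7 and 61.1 FPKM. The difference was 6.79-fold (2.76 ± 0.57, adjusted p = 0.0164), and the level was higher at ZT16 and ZT18 than at ZT14. Hspa5, which encodes the main HSP70 of this compartment (BiP), stood at 195, 147 and 183 FPKM and then at 408, 705 and 549 FPKM, 3.16-fold higher (1.66 ± 0.41, adjusted p = 0.0362). Manf, a secreted stress factor, rose from 16.5, 11.5 and 15.9 FPKM to 40.1, 62.4 and 50.7 FPKM (3.52-fold, adjusted p = 0.028). In each of these 3 genes the ZT10 library was the lowest of the fast window. The BiP cochaperone Dnajb11 rose 1.90-fold (adjusted p = 0.0345). Hyou1, a large HSP70 of the compartment, read 21.5, 11.3 and 19.7 against 23.3, 42.1 and 68.0 FPKM and missed the threshold (1.29 ± 0.36, adjusted p = 0.0577). The stress regulators Atf6, Ern1, Xbp1 and Ddit3 had log2 differences of 0.08 to 0.31 with adjusted p of 0.609 or more. Creld2 lost its call without ZT10, ZT16 or ZT18 (adjusted p of 0.0513 to 0.101). Hspa5, Manf and Dnajb11 lost theirs without any library except ZT14 (adjusted p of 0.0574 to 0.186 over the 3).

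**Figure D2:**
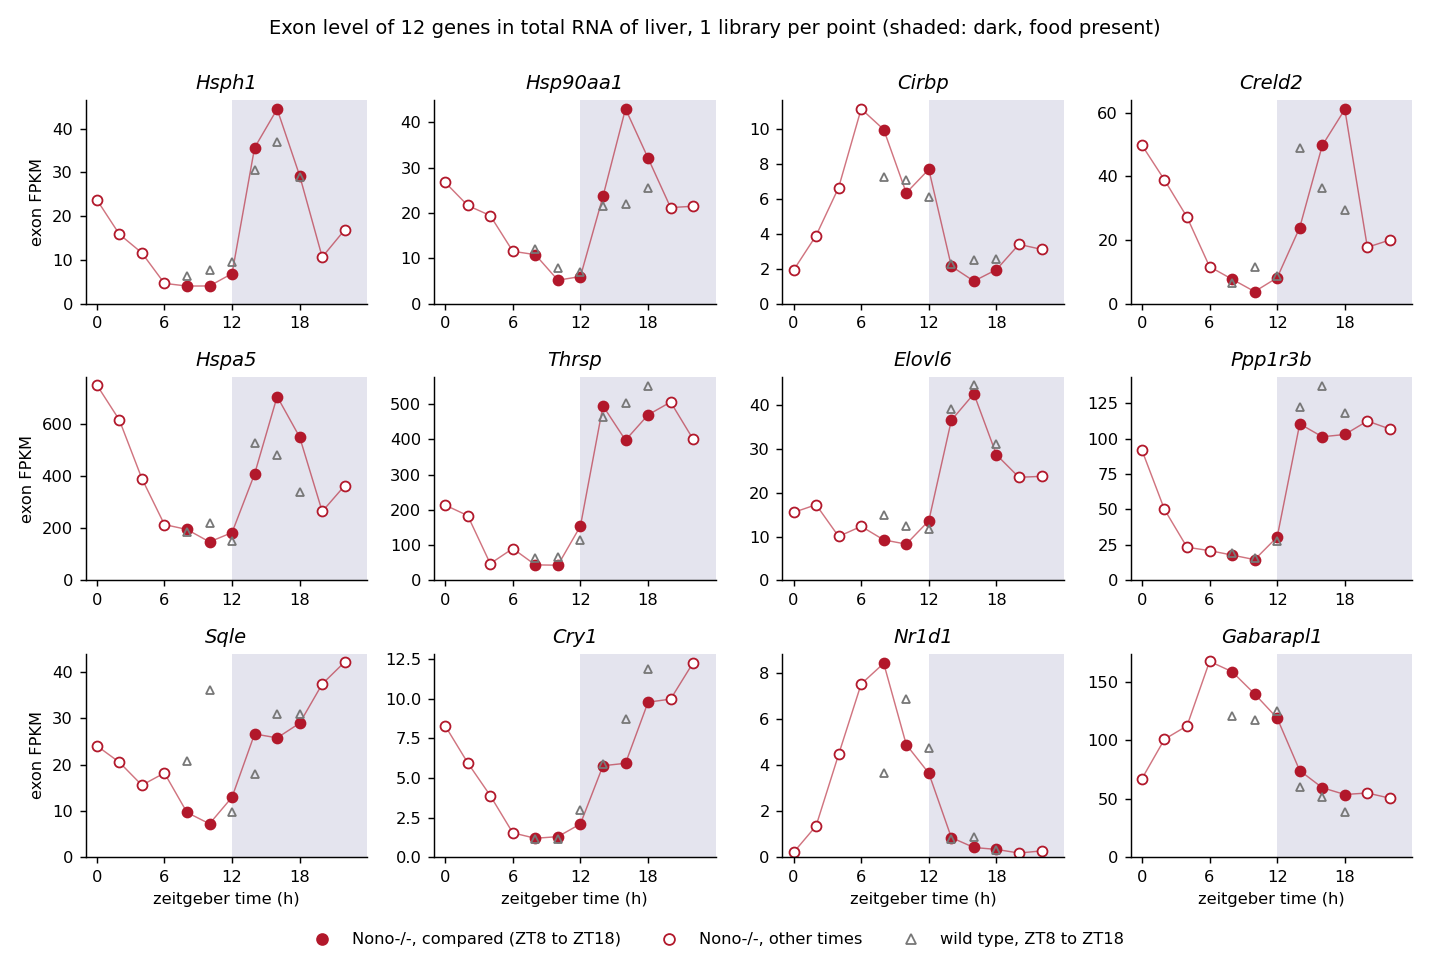
Exon FPKM of 12 genes over the day in Nono-/- total RNA (circles, 1 library each, filled for the 6 libraries compared) and in wild type in the same windows (triangles), with the dark phase shaded. Steps between ZT12 and ZT14 are seen for Hsph1 (6.84 and 35.6 FPKM) and Ppp1r3b (30.6 and 110 FPKM), while Cry1 was higher at ZT18 than at ZT14 (9.78 and 5.77 FPKM).

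Of the fatty acid synthesis genes 3 of 22 tested rose, 13.6% against 1.33% of all entries. None fell, 20 lay above 0 and the median log2 difference was 0.42. Thrsp, a nuclear protein that promotes the expression of lipogenic enzymes, rose from 43.8, 42.9 and 154 FPKM to 495, 398 and 469 FPKM. This was a 6.94-fold difference (2.79 ± 0.61, adjusted p = 0.0213), and ZT12, at the end of the light phase, already lay above ZT8 and ZT10. Elovl6, the elongase that makes stearate from palmitate, rose from 9.23, 8.26 and 13.6 FPKM to 36.5, 42.6 and 28.7 FPKM, 3.54-fold (1.82 ± 0.28, adjusted p = 0.00284). Acaca, which encodes acetyl-CoA carboxylase 1, rose 1.60-fold, from 4.31, 4.14 and 5.57 FPKM to 8.04, 6.6 and 7.47 FPKM (adjusted p = 0.0213). Fasn, the fatty acid synthase, read 10.5, 5.22 and 11.7 against 20.4, 18.3 and 44.3 FPKM (1.58 ± 0.45, adjusted p = 0.0655). The fed libraries of Fasn lay above the fast ones, and ZT18 was the highest of them. Srebf1, the gene of the insulin-driven regulator SREBP1, read 13.7, 9.34 and 12.5 against 13.4, 10.2 and 25.0 FPKM (0.39 ± 0.31, adjusted p = 0.574), so that the windows overlapped and ZT18 alone stood high. Srebf1 overlaps Rai1 on the other strand. Thrsp lost its call without any library except ZT12 (adjusted p of 0.0502 to 0.101), and Acaca without ZT8, ZT10, ZT14 or ZT16 (0.0699 to 0.0894).

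Scd1, the stearoyl-CoA desaturase, was among the most abundant of these messages and its exons did not pass, with 575, 1099 and 792 FPKM in the fast and 1956, 789 and 922 FPKM with food (0.53 ± 0.34, adjusted p = 0.47). In nuclear RNA of the same livers its introns, which stand for unspliced transcripts, rose from 0.725, 1.01 and 0.322 FPKM to 10.4, 26.6 and 8.32 FPKM. That difference was 19.9-fold (4.32 ± 0.55, adjusted p = 0.000635) and was called without each of the 6 libraries in turn. The nuclear libraries come from the same pools and are not independent of the total RNA. The difference between the exon and the intron change was not tested.

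Genes of glucose use and storage gave 1 call. Ppp1r3b, the liver subunit that targets protein phosphatase 1 to glycogen and favours glycogen synthesis, rose from 17.8, 14.6 and 30.6 FPKM to 110, 101 and 103 FPKM. It was 5.32-fold higher with food (2.41 ± 0.31, adjusted p = 0.00204), the 3 fed libraries lay close together and ZT12 was the highest of the fast. The other 12 tested members of the glycogen list did not pass and their log2 differences ran from -0.38 to 0.47. None of the 18 tested genes of glucose uptake and glycolysis and none of the 12 of gluconeogenesis passed. Over all entries 1.33% rose and 1.14% fell, so lists of this size would hold few calls. The gluconeogenic enzyme genes Pck1 (371, 446 and 720 against 433, 205 and 382 FPKM, adjusted p = 0.498) and G6pc (109, 33.2 and 84.0 against 164, 155 and 191 FPKM, adjusted p = 0.126) had log2 differences of opposite sign, -0.58 and 1.35. In G6pc the ZT10 library was the lowest by far.

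Every one of the 25 cholesterol synthesis and uptake genes lay above 0 with food, with a median log2 difference of 0.66, and 1 of them (4%) passed. Over all entries the median was 0.01 and 1.33% rose. Sqle, squalene epoxidase, rose from 9.66, 7.20 and 13.0 FPKM to 26.6, 25.8 and 28.9 FPKM, 2.83-fold (1.5 ± 0.34, adjusted p = 0.0247). The fed libraries were close to each other and the windows did not overlap. Its call was lost without any library except ZT12 (adjusted p of 0.0539 to 0.11). Insig1, which holds SREBP in the endoplasmic reticulum, read 58.8, 69.2 and 56.5 against 89.4, 148 and 134 FPKM (adjusted p = 0.071). In nuclear RNA 8 of the 25 genes passed for their introns, all higher, where 1.51% of all nuclear intron entries were called higher, and the median log2 difference was 1.16. The 8 were Dhcr7, Ebp, Fdps, Lss, Nsdhl, Pmvk, Sqle and Tm7sf2. Fdps, farnesyl diphosphate synthase, had nuclear introns at 1.44, 1.63 and 1.18 FPKM in the fast and 3.54, 7.61 and 6.33 FPKM with food (3.91-fold, adjusted p = 0.0065). Of the 8, Ebp and Tm7sf2 passed without each library in turn. Fdps lost its call without ZT16 (adjusted p = 0.0578), and the other 5 without 4 to 6 of the 6 libraries (adjusted p of 0.0600 to 0.182).

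The core clock genes, whose products repress or activate each other over the day, gave 2 higher and 1 lower call among 17 tested. These calls were 17.6% of the list, where 1.33% of all entries rose and 1.14% fell. Cry1, a repressor of CLOCK and BMAL1 that peaks late, rose from 1.19, 1.29 and 2.09 FPKM to 5.77, 5.92 and 9.78 FPKM (4.53-fold, 2.18 ± 0.45, adjusted p = 0.0171). Each library of Cry1 was higher than the one before it from ZT8 to ZT18. Nr1d1, which encodes the repressor REV-ERB alpha, fell from 8.41, 4.88 and 3.64 FPKM to 0.848, 0.418 and 0.334 FPKM. The fall was 8.92-fold (-3.16 ± 0.56, adjusted p = 0.00732), and each library was lower than the one before it. Nr1d1 overlaps Thra on the other strand. Arntl fell through the fast window and rose through the fed one, and did not pass (1.23, 0.6 and 0.203 against 0.617, 2.88 and 5.21 FPKM, adjusted p = 0.222). Dbp, a clock output factor, rose through the fast window and fell through the fed one, and did not pass (15.3, 17.7 and 22.2 against 8.57, 3.10 and 2.44 FPKM, adjusted p = 0.244). Per2 read 1.19, 2.61 and 3.08 against 5.13, 5.21 and 5.38 FPKM (1.28 ± 0.39, adjusted p = 0.0859). Cry1 lost its call without ZT8, ZT10, ZT16 or ZT18 (adjusted p of 0.0552 to 0.0764) and Nr1d1 without ZT16 (0.0544).

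The E-box CACGTG, through which CLOCK and BMAL1 act, lay in the promoter window of 5 of 16 matched clock genes (31.2%: Bhlhe41, Ciart, Cry1, Per1 and Tef) and of 2187 of all 27025 genes (8.09%). It is shown for Cry1, the clock gene that rose most, with the E-box in capitals at positions -60 to -55 (chr10:85185082-85185141, minus strand, GRCm38.p6).
Cry1: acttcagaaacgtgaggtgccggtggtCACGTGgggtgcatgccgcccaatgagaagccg
The ROR site TAGGTCA lay in the window of Arntl and Nfil3, 12.5% of the clock genes against 2.97% of all genes, and neither gene passed the threshold.

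Genes tied to the fast fell in small numbers. Trib3, a pseudokinase that restrains AKT, fell from 2.36, 1.81 and 1.24 FPKM to 0.582, 0.156 and 0.534 FPKM, 3.8-fold (-1.93 ± 0.42, adjusted p = 0.0213). It was the only call among 20 tested genes of insulin and FOXO signalling, 5% where 1.14% of all entries fell. The FOXO target Igfbp1 read 10.7, 19.3 and 17.8 against 3.24, 4.22 and 16.4 FPKM (adjusted p = 0.341), with ZT18 back at the level of the fast. Of 17 autophagy genes 2 fell (11.8%). Gabarapl1, a membrane protein of the autophagosome, fell from 159, 140 and 119 FPKM to 74.1, 59.5 and 53.7 FPKM (2.20-fold, -1.14 ± 0.20, adjusted p = 0.00751), lower at each time than at the one before. Atg14, a subunit of the lipid kinase that starts autophagosomes, fell from 4.28, 4.04 and 4.78 FPKM to 2.46, 2.60 and 2.24 FPKM (1.73-fold, adjusted p = 0.0153). Gabarapl1 overlaps an entry on the other strand. Ddit4, an inhibitor of mTORC1, went the other way and rose from 1.0, 0.504 and 0.943 FPKM to 2.13, 1.94 and 3.49 FPKM (2.92-fold, adjusted p = 0.0201). Calls were lost for Trib3 without ZT8, ZT10 or ZT16 (adjusted p of 0.0798 to 0.150), for Gabarapl1 without ZT16 (0.0544), for Atg14 without ZT10, ZT12, ZT16 or ZT18 (0.0513 to 0.0627) and for Ddit4 without ZT10, ZT16 or ZT18 (0.0648 to 0.0956).

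Of 16 genes of bile acid synthesis and transport 2 fell, 12.5% against 1.14% of all entries. Abcg8, part of the sterol exporter of the bile canaliculus, fell from 21.2, 24.4 and 24.4 FPKM to 12.9, 6.52 and 6.17 FPKM (2.83-fold, -1.5 ± 0.33, adjusted p = 0.0213). Its partner Abcg5 overlaps it on the other strand, so that reads of one may be counted for the other in exons and introns, and the values of both are uncertain. Abcg5 read 30.4, 48.0 and 41.1 against 33.3, 22.6 and 18.4 FPKM (-0.68 ± 0.31, adjusted p = 0.274). The windows overlapped for Abcg5 and not for Abcg8. Hsd3b7, an enzyme of bile acid synthesis, fell from 269, 109 and 133 FPKM to 75.4, 65.1 and 99.5 FPKM (1.97-fold, adjusted p = 0.0301). Cyp7a1, the rate-limiting enzyme of bile acid synthesis, read 41.7, 59.0 and 43.1 against 133, 117 and 101 FPKM and did not pass (1.32 ± 0.50, adjusted p = 0.174). Abcg8 lost its call without ZT10, ZT12, ZT16 or ZT18 (adjusted p of 0.0573 to 0.124), and Hsd3b7 without ZT8, ZT14 or ZT16 (0.0771 to 0.165).

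Ribosome biogenesis genes were higher in 26 of 29 tested members, 5 of them past the threshold, with a median log2 difference of 0.34. The calls were 17.2% of the members, where 1.33% of all entries rose and the median over all entries was 0.01. Nolc1, a nucleolar phosphoprotein, rose from 3.86, 2.46 and 5.0 FPKM to 7.83, 7.24 and 6.91 FPKM (2.03-fold, 1.02 ± 0.20, adjusted p = 0.0153). Nop16, Heatr1, Wdr12 and Tsr1, all factors of ribosome assembly, rose 1.77-, 1.61-, 1.58- and 1.44-fold (adjusted p = 0.0171, 0.0205, 0.0404 and 0.0436). The 27 tested ribosomal protein genes had no call and a median of 0.04. Among RNA-binding proteins, Tra2a, a splicing activator, rose from 5.40, 4.51 and 4.39 FPKM to 11.1, 14.0 and 10.9 FPKM (2.52-fold, adjusted p = 0.0356). Fam98a, on the list of DBHS and paraspeckle genes, rose 1.39-fold (adjusted p = 0.0422), and the DBHS partners Sfpq and Pspc1 had log2 differences of 0.38 and -0.16 (adjusted p = 0.148 and 0.731). Tra2a and Fam98a lost their calls without any one of the 6 libraries (adjusted p of 0.0552 to 0.181), and Nolc1 without ZT10 or ZT16 (0.0821 and 0.0824). Nop16, Heatr1, Wdr12 and Tsr1 lost theirs without 4 or 5 of the 6 libraries (0.0513 to 0.240).

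Outside these lists, Rcan1, an inhibitor of calcineurin, rose from 5.59, 3.25 and 5.67 FPKM to 30.9, 19.6 and 14.0 FPKM. It was 4.35-fold higher (2.12 ± 0.29, adjusted p = 0.00204), highest at ZT14 and lower at each later time. Tfrc, the transferrin receptor, rose from 5.61, 8.38 and 10.4 FPKM to 28.9, 29.8 and 32.4 FPKM (3.88-fold, adjusted p = 0.0187). Cml5, an acetyltransferase-like gene, rose 5.28-fold from 4.34, 4.40 and 8.45 FPKM to 17.3, 34.5 and 39.9 FPKM (adjusted p = 0.0153). The pseudogene Cyp2c53-ps rose 3.89-fold (adjusted p = 0.0171) and Tnnc1, a troponin gene, 3.73-fold from under 1 FPKM (adjusted p = 0.0467). Rcan1 passed without each library in turn. Tfrc and Cml5 lost their calls without ZT8, ZT10 or ZT16 (adjusted p of 0.0515 to 0.101), Cyp2c53-ps without ZT10, ZT12 or ZT16 (0.0515 to 0.111), and Tnnc1 without any one of the 6 (0.0502 to 0.186).

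Among the other genes that fell most, Fbxo21, a subunit of a ubiquitin ligase, dropped from 26.3, 20.5 and 21.0 FPKM to 7.54, 5.66 and 6.29 FPKM, 3.39-fold (-1.76 ± 0.24, adjusted p = 0.00214). Tcp11l2 fell from 10.4, 10.4 and 10.1 FPKM to 2.97, 2.49 and 4.43 FPKM (3.11-fold, adjusted p = 0.00284). Both were called without each library in turn. Flcn, the folliculin that takes part in nutrient sensing by mTORC1, fell from 5.87, 4.72 and 6.26 FPKM to 2.23, 1.46 and 2.34 FPKM (2.70-fold, adjusted p = 0.00621). Klhl24, a ubiquitin ligase adaptor, fell from 27.8, 30.7 and 27.9 FPKM to 14.1, 9.66 and 10.3 FPKM (2.51-fold, adjusted p = 0.0058). Clec2h, a C-type lectin, fell 4.42-fold (adjusted p = 0.0165), the zinc finger gene Zc3h6 4.16-fold (adjusted p = 0.00951) and the transcription factor gene Rfx4 3.32-fold (adjusted p = 0.0255). Slc8b1, the mitochondrial sodium-calcium exchanger, fell 2.91-fold, Meiob 2.82-fold, the caspase gene Casp6 2.56-fold and the membrane protein gene Emp2 2.49-fold (adjusted p = 0.0255, 0.028, 0.0187 and 0.0201). Flcn and Klhl24 lost their calls without ZT16 (both adjusted p = 0.0544), Clec2h and Zc3h6 without ZT10 or ZT16 (0.0614 to 0.0821) and the other 5 without 4 or 5 of the 6 libraries (0.0502 to 0.150).

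Introns of total RNA, which come from RNA not yet spliced, gave 34 entries that rose and 26 that fell of 9370 tested, 0.363% and 0.277%. At p under 0.05 without adjustment there were 668 and 512. Ppp1r3b introns rose from 1.23, 1.25 and 1.98 FPKM to 3.14, 5.55 and 3.98 FPKM (adjusted p = 0.0488), and Cry1 introns rose 2.76-fold (1.46 on the log2 scale, adjusted p = 0.0465). S100a10, a calcium-binding protein gene, rose in its introns from 0.195, 0.186 and 0.226 FPKM to 0.805, 0.727 and 0.570 FPKM (3.33-fold, adjusted p = 0.0317), whereas its exons overlapped between the windows (0.50 ± 0.30, adjusted p = 0.43). Acnat1, an acyltransferase gene, and Cyp2c53-ps rose 3.08-fold and 4.46-fold in introns (both adjusted p = 0.0204). Gpcpd1, a phosphodiesterase of choline lipids, fell in introns from 4.47, 6.24 and 6.48 FPKM to 1.98, 1.18 and 0.832 FPKM (3.88-fold, adjusted p = 0.0204). Its exons read 104, 78.3 and 106 against 98.7, 27.5 and 13.8 FPKM (adjusted p = 0.185), so that the ZT14 library still stood at the level of the fast. Serpina6, which encodes the corticosteroid carrier of plasma, fell 2.68-fold in introns (adjusted p = 0.0204) and its exons had a log2 difference of -0.21 (adjusted p = 0.722). Nr1d1, Abcg8 and Abcg5 fell in introns by 3.87-, 3.05- and 2.93-fold (adjusted p = 0.0204, 0.0204 and 0.0441). Among the lists, the introns of Cpt1a, the gate of fatty acids into mitochondria, fell 2.10-fold from 0.795, 1.33 and 1.21 FPKM to 0.355, 0.440 and 0.512 FPKM (adjusted p = 0.0465), while its exons read 76.2, 96.1 and 117 against 97.1, 75.6 and 65.8 FPKM (adjusted p = 0.702). No intron call was kept without each library in turn: without ZT10, ZT16 or ZT18 there were 0 calls of either sign (945, 1000 and 1136 entries at an unadjusted p under 0.05), and the smallest adjusted p were 0.089, 0.0986 and 0.0713.

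In nuclear RNA of the same livers 182 of 12036 intron entries rose and 207 fell (1.51% and 1.72%). Gpcpd1, Nr1d1, Abcg8, Abcg5 and Cpt1a were called there too, with falls of 4.77-, 7.80-, 4.89-, 5.18- and 3.08-fold (adjusted p = 0.000635, 0.00752, 0.00202, 0.00373 and 0.00604), and each kept its call without every library in turn. Of 30 tested genes of PPAR alpha and ketogenesis 4 fell in nuclear introns, Cpt1a, Ppara itself, the vanin gene Vnn1 and the acyl-CoA dehydrogenase gene Acadl. Ppara nuclear introns fell from 22.4, 18.5 and 21.8 FPKM to 11.3, 9.38 and 8.88 FPKM (2.08-fold, adjusted p = 0.0116). In exons of total RNA none of the 30 passed and their median log2 difference was 0.29, with 23 above 0. Ppara lost its nuclear call without ZT16 (adjusted p = 0.067), and Vnn1 without any one of the 6 (0.0744 to 0.148).

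For several genes the exons changed and the introns did not pass. Hsph1, Hsp90aa1, Hspa5, Thrsp and Elovl6 had exon calls and no intron call in either fraction. In nuclear RNA 0 of 16 heat and cold genes, 0 of 22 protein folding genes and only Scd1 of 23 fatty acid synthesis genes passed. Over all nuclear intron entries 1.51% rose and 1.72% fell. Lists of this size would hold few calls at that share, so these counts do not set them apart. The median log2 differences of these lists in introns were 0.42 to 0.73 in total RNA and 0.56 to 0.86 in nuclear RNA. Cirbp introns read 0.227, 0.454 and 0.145 against 0.126, 0.225 and 0.293 FPKM in total RNA (-0.08 ± 0.44, adjusted p = 0.966) and had a log2 difference of -0.64 ± 0.26 in nuclear RNA (adjusted p = 0.186). Tra2a introns had log2 differences of 0.02 ± 0.17 and -0.03 ± 0.20, next to 1.33 ± 0.33 for its exons. Tfrc introns had 0.66 ± 0.25 and 0.52 ± 0.23, next to 1.96 ± 0.41 for its exons. Low intron values of 0.1 to 0.5 FPKM rest on few reads, and the difference between exon and intron change was not tested.

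**Figure D3:**
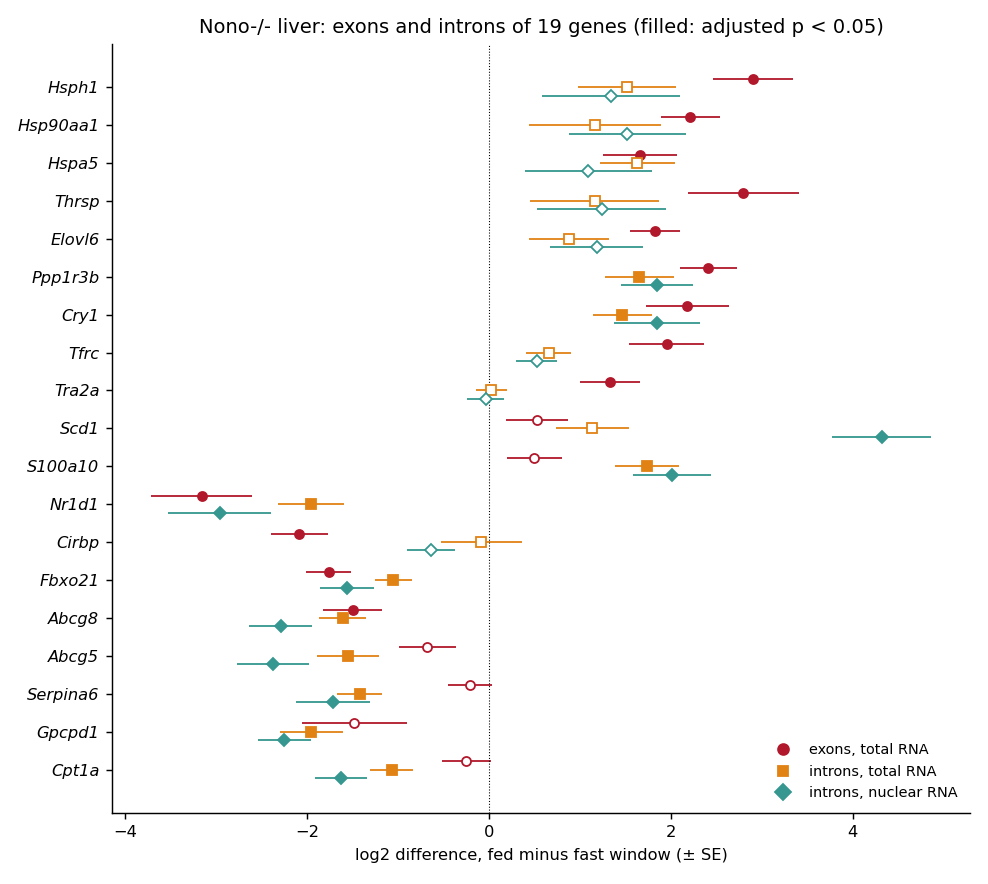
Log2 difference between the fed and the fast window (± SE) of 19 genes in Nono-/- liver for exons and introns of total RNA and introns of nuclear RNA. Filled symbols passed the adjusted p of 0.05. Hsph1, Hsp90aa1, Hspa5, Thrsp, Elovl6, Cirbp, Tra2a and Tfrc pass for exons alone. Serpina6, Cpt1a, S100a10, Gpcpd1 and Abcg5 pass for introns of both fractions and not for exons, and Scd1 nuclear introns reach 4.32.

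The same windows in wild-type total RNA gave 414 exon entries that rose and 365 that fell, 3.65% and 3.22% of those tested, and 113 and 104 intron entries, 1.21% and 1.11%. Of the 151 entries that rose in Nono-/- liver 80 rose in wild type as well, which is 53.0% of the Nono-/- calls and 19.3% of the wild-type ones. Of the 129 that fell 81 fell in wild type, 62.8% and 22.2%. No entry was called in opposite directions, and 150 of 151 and 129 of 129 had the same sign in wild type, which held for 64.7% of all tested entries. The test of the difference itself called 0 of 11340 exon entries and 0 of 9370 intron entries (0% and 0%), with 497 (4.38%) and 204 (2.18%) at an unadjusted p under 0.05. In introns of nuclear RNA the same test called 1 of 12036 entries (adjusted p = 0.0257), with 214 (1.78%) at an unadjusted p under 0.05. Without the wild-type ZT12 library of total RNA the test called 1 exon entry. Sample numbers in the column headers run in blocks by genotype and fraction. The headers do not say what these numbers record, and any batch that follows them cannot be told apart from the genotype. The smallest adjusted p was 0.855 for exons, and the median SE of a difference was 0.28 on the log2 scale. Gaps several times that SE did not pass either, so these data do not show that the genotypes respond alike.

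**Figure D4:**
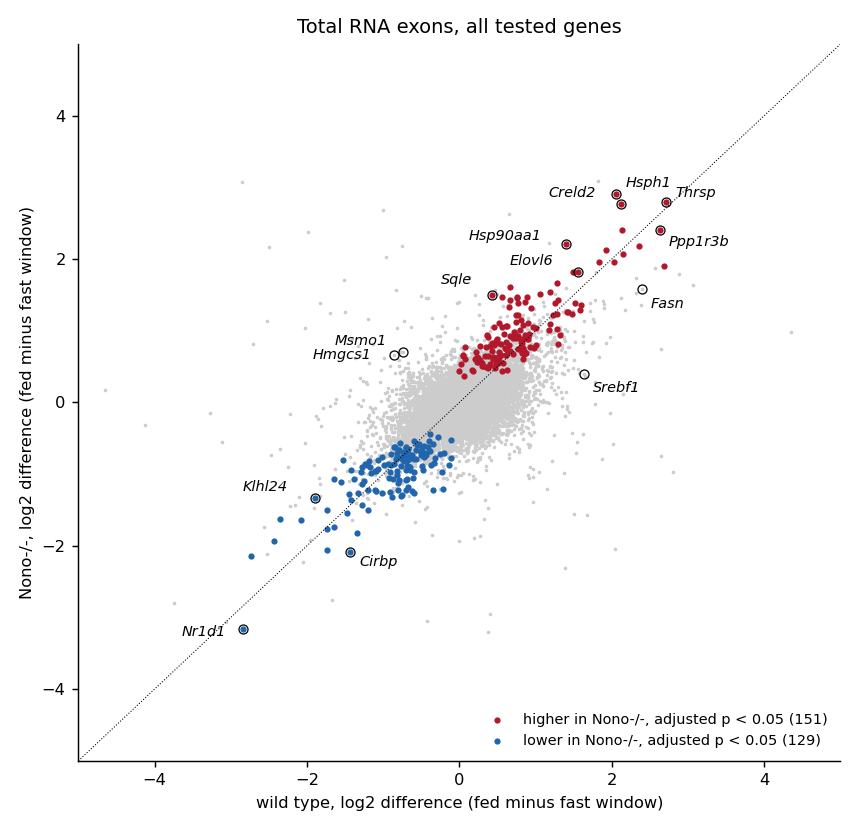
Log2 difference between the fed and the fast window in Nono-/- against wild-type total RNA, 1 point for each of the tested exon entries, with the entries called in Nono-/- in colour and the line of equal change dotted. Coloured points follow the line, while Srebf1 and Fasn lie to its right (larger in wild type) and Msmo1, Hmgcs1 and Sqle to its left, all with an adjusted p of 0.855 for the difference.

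In wild type Hsph1 read 6.32, 7.63 and 9.45 against 30.6, 37.0 and 29.0 FPKM. The log2 difference was 2.06 there, and the Nono-/- value exceeded it by 0.85 with an interval of -0.44 to 2.13 (95%, without adjustment). For Elovl6, Ppp1r3b and Thrsp the corresponding gaps were 0.27 (-0.55 to 1.08), -0.22 (-1.15 to 0.70) and 0.08 (-1.72 to 1.89). Srebf1 read 5.97, 10.9 and 15.6 against 26.6, 33.4 and 34.0 FPKM in wild type and rose there (1.64, adjusted p = 0.00524), and the gap was -1.25 (-2.16 to -0.33, adjusted p = 0.855). Fasn rose in wild type from 8.19, 13.8 and 13.6 FPKM to 38.5, 69.1 and 83.3 FPKM (2.4, adjusted p = 0.00483), with a gap of -0.82 (-2.15 to 0.51). An effect past the threshold in one genotype and not in the other is not a difference between them, and none of these gaps passed.

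Cholesterol genes had a median log2 difference of 0.30 in wild type, against 0.66 in Nono-/- liver. Sqle read 20.8, 36.2 and 9.72 against 17.9, 30.9 and 31.0 FPKM in wild type, Hmgcs1 104, 206 and 46.5 against 39.1, 65.4 and 62.8 FPKM, and Msmo1 159, 191 and 69.3 against 70.6, 80.8 and 76.4 FPKM. The wild-type ZT10 library was the highest of its fast window for all 3 genes. The same library also held Saa1, an acute-phase gene, at 4490 FPKM against 23.7 to 110 FPKM in the other 5, and the part of that library in the gap was not tested. The gaps of Msmo1, 1.45 (0.65 to 2.25), and Hmgcs1, 1.52 (0.46 to 2.59), had an adjusted p of 0.855.

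By the smallest p, none of them past the threshold, the exon entries with the clearest gap were Macrod1 (-1.13), Msmo1 (1.45), Gimd1 (1.26), 2700094K13Rik (0.90) and Lum (1.09). For introns these were Men1 (-1.32), Traf3ip3 (0.88), Pitrm1 (-0.57), Il2rg (1.61) and Arsa (-2.15), with an adjusted p of 1.0. Macrod1 exons read 4.33, 3.32 and 3.64 against 2.65, 2.13 and 2.87 FPKM in Nono-/- and 2.62, 2.52 and 4.04 against 5.11, 4.80 and 3.88 FPKM in wild type, so that the signs were opposite. Macrod1, Traf3ip3, Pitrm1 and Arsa overlap a gene on the other strand.

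Lists without a call in Nono-/- exons included glucagon and cAMP signalling (12 tested), PPAR alpha and ketogenesis (30), triglyceride synthesis (14), the urea cycle (9), acute-phase genes (21), glucocorticoid targets (13), the IGF and growth hormone axis (10) and growth and cell cycle genes (16). Their median log2 differences lay between -0.13 and 0.29. Over all entries 1.33% rose and 1.14% fell. Lists of 9 to 30 genes would hold few calls at that share, so having none does not set them apart. Within the acute-phase list, Saa1 read 317, 52.1 and 48.1 against 479, 299 and 479 FPKM, and the spread between libraries was too wide for a call (2.17 ± 1.24, adjusted p = 0.4). All 9 lists of cell type markers were without a call, but only 1 (lymphoid) to 12 (Kupffer, endothelial) members of each were tested. Their medians ran from -0.21 (erythroid, 6 tested) to 0.21 (cholangiocyte, 2 tested). Lists this short cannot show that the cell composition was the same in both windows. The immediate early genes had 1 call, Maff, which fell 2.17-fold (adjusted p = 0.045), and amino acid breakdown had 1, Agxt, which fell 1.72-fold from 142, 89.0 and 99.7 FPKM to 52.8, 51.7 and 86.0 FPKM (adjusted p = 0.0255). These are 5.56% and 4.76% of the members tested, where 1.14% of all entries fell. Maff lost its call without any one of the 6 libraries (adjusted p of 0.0604 to 0.170) and Agxt without ZT8, ZT10, ZT14 or ZT16 (0.0635 to 0.150).

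The number of calls depended on single libraries. Leaving out ZT16 left 5 exon entries higher and 4 lower, leaving out ZT10 left 26 and 25, and leaving out any other library left 50 to 93 and 58 to 85. The direction was the same as in the full set for 279 or 280 of the 280 called entries in each of these fits. Elovl6, Hsp90aa1, Hsph1, Ppp1r3b and Rcan1 were called higher, and Cirbp, Fbxo21 and Tcp11l2 lower, whichever library was left out.

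**Figure D5:**
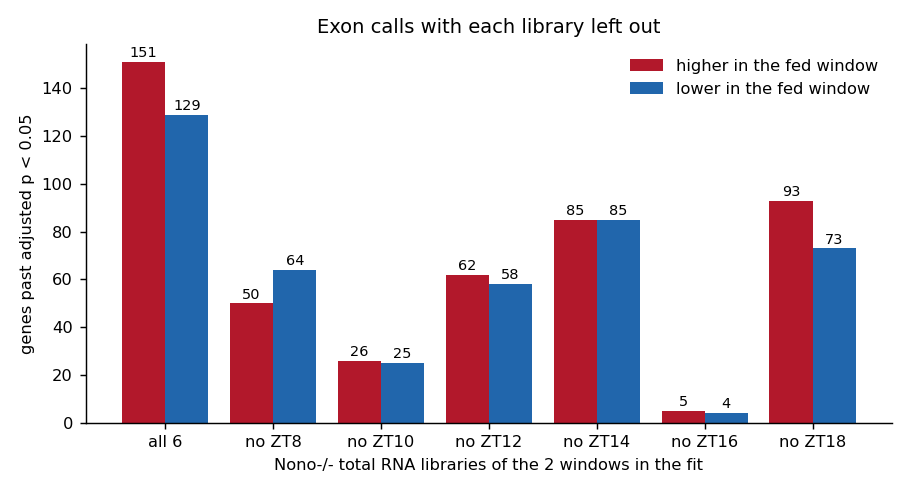
Number of exon entries higher (red) and lower (blue) in the fed window at an adjusted p under 0.05, with all 6 Nono-/- libraries and with each left out in turn. The counts fall from 151 and 129 to 5 and 4 without ZT16 and to 26 and 25 without ZT10.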

How the data were processed

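The deposited tables give FPKM of exons and of introns per gene, made by the authors with HOMER on mm10, per the file headers; the strand option and HOMER version are not given in the sources used here. Reads were checked with FastQC 0.11.2 and aligned with STAR 2.4.0k, per the submitters' processing notes, and the libraries were stranded and depleted of ribosomal RNA, per the labels' protocols. Depth was estimated from the steps of low exon FPKM values, which are multiples of what 1 read is worth; no count test was run, since the unit is FPKM. For each table the 24 total RNA libraries were scaled by median ratios, entries with a mean of 0.5 FPKM (exons) or 0.1 FPKM (introns) were kept, and log2(FPKM + 0.1) or log2(FPKM + 0.05) was fitted with limma 3.58.1 (R 4.3.3, trend) in 8 groups of 3 libraries (genotype by window, 16 residual degrees of freedom). Fold changes are on that scale, which understates those of low genes. Printed FPKM values are as deposited. Nuclear introns were fitted alike on their 24 libraries. The contrasts were fed minus fast in each genotype and their difference, with Benjamini-Hochberg adjustment over all tested entries and 95% intervals without adjustment. The code was tested on simulated data. No samples are shared between the genotypes. Libraries were numbered in accession order, so that within a window a number stands for the same time in both genotypes. The main fits did not pair libraries, so each p-value reflects how far pools of 3 successive times differ.

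Members, the 35 gene lists (572 genes, 568 in the exon table) and the tests were chosen with earlier results of these data known. Named genes are Nono, the 15 largest changes each way among exon calls of at least 1 FPKM without overlap, the 5 each way among intron calls of at least 0.2 FPKM, the 5 smallest p of the difference, and core members of the lists. The other called list members and the genes named beside them (Hspe1, Hspd1, Bag3, Atf6, Ern1, and Fdps, Vnn1, Acadl and further nuclear calls) were added after their values were seen. Promoters are from RefSeq (GRCm38.p6), with 470 of 602 genes matched. Figures were drawn with matplotlib 3.10.9. Some genes that the rule names or that were called are not reported here.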

Additional observations from a re-analysis of the deposited data

How the results depend on the processing

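Against 151 higher and 129 lower exon entries, counts moved by over 1.5 times for at least 1 direction under 5 settings: 93 and 68 without a filter, 28 and 25 for ZT10 and ZT12 against ZT14 and ZT16 alone, 43 and 22 in a fit of the 6 libraries alone, 39 and 35 in a fit of the 12 Nono-/- libraries, and 79 and 62 with the intron share as a covariate, which was added after seeing the data. Leaving out each library gave 5 to 93 higher and 4 to 85 lower. Against 34 higher and 26 lower intron entries there were 8 and 9 without scaling (the median log2 difference of all entries was then -0.13 instead of 0.02), 22 and 21 with upper quartile scaling, 14 and 16 with a filter 4 times stricter, 21 and 14 without a filter, 0 and 0 for the 4 middle times, 0 and 0 in the fit of 6 libraries, 4 and 2 in that of 12, and 25 and 12 with the intron share. Leaving out each library gave 0 to 25 higher and 0 to 26 lower. The 389 nuclear intron calls became 158 for the 4 middle times, 139 in the fit of 6 libraries and 207 in that of 12, and 80 to 345 when each library was left out. Fits with fewer libraries have fewer degrees of freedom, and otherwise the cause was not tested. The genotype difference had 0 exon calls throughout, except for 1 without the wild-type ZT12 library (0 to 1 over the libraries left out).

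Replicate numbers follow accession order, and within a window the same number stands for the same time in both genotypes. The main fits did not pair libraries by time. Libraries of both genotypes at 1 time deviated together, with a correlation over 0.1, at 10 of 12 times. The exceptions were ZT8 (-0.15) and ZT10 (-0.31), both in the fast window. A fit of total RNA with each time as a block gave 0 calls for the genotype difference. With 1 library per time, a gap between the genotypes of 1.52 on the log2 scale (Hmgcs1 exons) did not pass, nor did gaps larger in size (Il2rg and Arsa introns).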
